A study of Zea mays with 18 samples.

Results

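In maize anthers, 38 of the 45578 genes listed in the deposited count tables had far more RNA with an active ZmCCT10 transgene in the earliest and the latest stage sampled, and a level near that of the controls in between. Transgenic plants, here ZmCCT(+), carried the active transgene, and the controls, here ZmCCT(-), were non-transgenic. Each genotype was sampled in 3 windows of anther development (S3-4, S5-6 and S7 in the labels), and each combination has 3 libraries made from total RNA, 18 in all. The labels used here give no promoter, transformation event or inbred line, nor whether replicate libraries are separate plants, pools or preparations of 1 sample. The p-values below thus reflect differences among these libraries alone, and that variation may be technical.

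ZmCCT10 belongs to the family of plant regulators with a CCT domain, a stretch shared with CONSTANS and the clock protein TOC1 of Arabidopsis. In maize it is best known as a repressor of flowering under long days, through which tropical lines respond to photoperiod. A maize anther forms concentric wall layers, with the tapetum innermost, around the cells that enter meiosis, and its RNA content follows this program from stage to stage.

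The members were chosen by their measured values. Counts were divided by the library total and multiplied by 1000000 to give CPM, and the 3 libraries of a group were averaged. A member had a ZmCCT(+) mean, with 0.1 CPM added, of at least 4 times the ZmCCT(-) mean, with 0.1 CPM added, at S3-4 and again at S7. It had a ratio between 0.67 and 1.5 at S5-6, and a ZmCCT(+) mean of at least 2 CPM at S3-4 and at S7. The genotype differences below are therefore descriptions and carry no test. All 38 identifiers begin with Zm00001d, and 0 of them is a microRNA precursor. The tables pair none of them with a gene name and 0 of the 38 was found in the gene table used here, so no function is given for any of them, the transgene itself could not be looked up, and the tissue could not be checked against named anther genes. All 38 passed the filter on low counts that kept 24694 genes for testing.

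The summed mean level of the members at S3-4 was 1826 CPM in ZmCCT(+) and 76.55 CPM in ZmCCT(-). At S5-6 the sums were 77.64 CPM in ZmCCT(+) and 69.62 CPM in ZmCCT(-), and at S7 they were 1224 CPM in ZmCCT(+) and 73.74 CPM in ZmCCT(-). The rule keeps the ZmCCT(+) sum at S5-6 close to that of the controls. The 3 control sums differed little, although single members changed in both directions. In ZmCCT(-), Zm00001d052533 went from 31.1 CPM at S3-4 to 17.2 at S5-6 and 17.1 at S7. Zm00001d044686 went from 0.956 to 4.24 and 6.79 CPM. The members took 0.179% to 0.185% of all counts in the 3 S3-4 ZmCCT(+) libraries, against 0.00751% to 0.00792% in the S3-4 controls, and 0.121% to 0.123% in the S7 ZmCCT(+) libraries, against 0.00728% to 0.0075% in the S7 controls. In bulk anther RNA, fewer cells that use a gene and less RNA of it per cell cannot be told apart.

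Single members covered a wide range. The ratio of ZmCCT(+) to ZmCCT(-) had a median of 30.4 at S3-4 (lowest 4.10, highest 644), 1.03 at S5-6 (lowest 0.679, highest 1.42) and 11.4 at S7 (lowest 4.39, highest 690). Values above about 100 come mostly from members with almost no control count, for which the added 0.1 CPM sets the ratio. Over the 30 members with more than 2 control counts the medians were 20.4, 1.07 and 6.11 at S3-4, S5-6 and S7. The ratio was under 6 for 15 members at S7 and for 2 members at S3-4. In all 38 members the 6 ZmCCT(+) libraries of S3-4 and S7 each lay above all 9 control libraries. In 33 of 38 the S5-6 values of the genotypes overlapped. The rule favours both outcomes and neither was counted over all genes, so nothing is read from these counts. The share of tested genes called higher in ZmCCT(+) was 40.4% at S3-4, 29.8% at S5-6 and 24.1% at S7, by edgeR's quasi-likelihood test at a Benjamini-Hochberg adjusted p below 0.05. The rule fixes where the members stand in those contrasts, so nothing is read from their own calls.

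**Figure D1:**
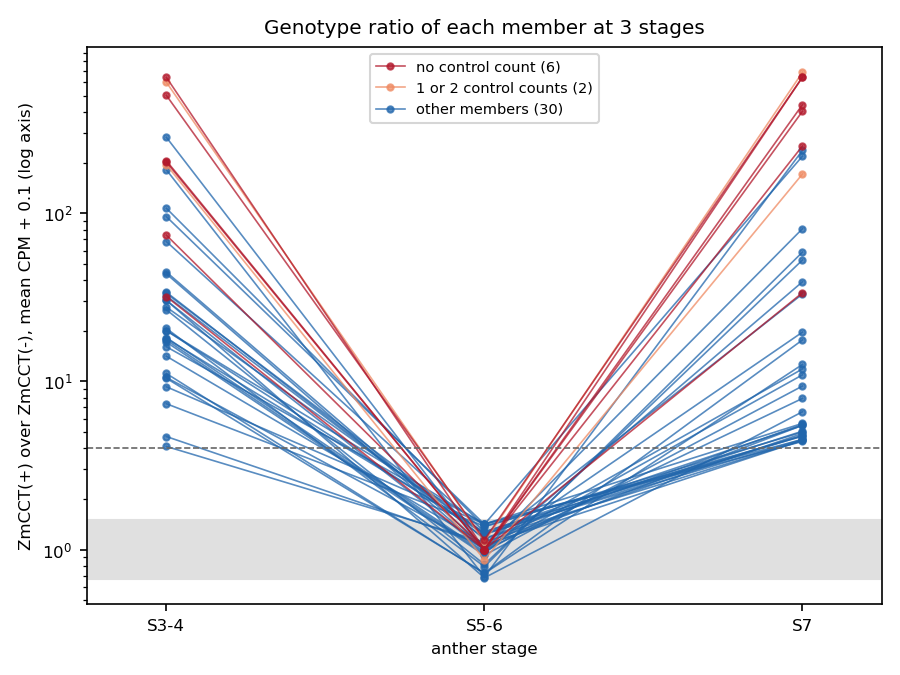
Ratio of mean CPM in ZmCCT(+) over ZmCCT(-), with 0.1 CPM added to both, for each of the 38 members at the 3 stages, on a log axis. Each line is 1 member, the dashed line is the minimum of 4 and the grey band the range from 0.67 to 1.5 that the rule asks for at S5-6; the lines fall into the band at S5-6 by construction, from medians of 30.4 at S3-4 and 11.4 at S7.

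Other patterns in time were counted by the same cut-offs. In all, 130 genes met the requirements at S3-4 and S7 with no condition on S5-6. At S5-6, 33 of these (25.4%) still had a ratio of 4 or more, 51 (39.2%) lay between 1.5 and 4, the 38 members (29.2%) lay within 0.67 to 1.5, and 8 (6.15%) lay below 0.67 but above 0.25. The mirrored pattern, lower in ZmCCT(+) at S3-4 and S7 and level at S5-6, held 21 genes. A higher level at S3-4 and S5-6 but not S7 was found for 14 genes, and at S5-6 and S7 but not S3-4 for 0.

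**Figure D2:**
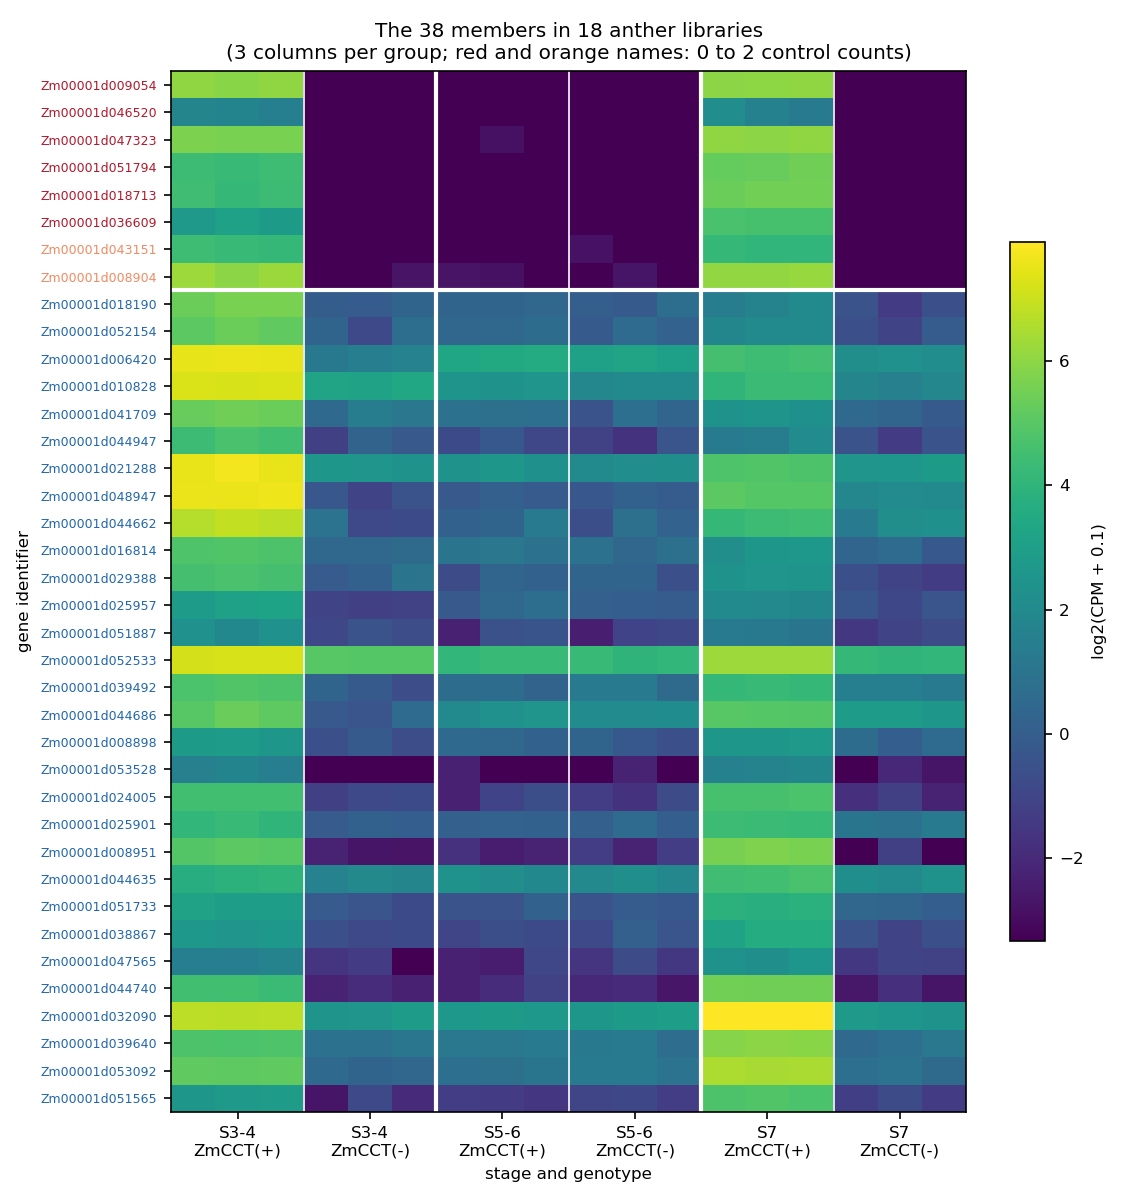
Level of the 38 members in the 18 libraries as log2(CPM + 0.1), 3 columns for each stage and genotype; names in red and orange mark the 8 members with 0 to 2 control counts. The ZmCCT(+) columns of S3-4 and S7 are brighter than the control columns in every row, and the S5-6 columns of both genotypes are alike.

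Of the 38 members, 6 had no count in any of the 9 control libraries. They are Zm00001d009054, Zm00001d047323, Zm00001d018713, Zm00001d051794, Zm00001d036609 and Zm00001d046520. Together they had 1 count in the S5-6 ZmCCT(+) libraries, a single count of Zm00001d047323 in 1 library. In the count tables these genes were thus seen almost only in ZmCCT(+) anthers of S3-4 and S7. In the deposited TPM 5 of them are listed at 0 in every control library, and Zm00001d047323 is not. Where a group had no count, its 3 libraries were given a floor of 3 counts in sum, which is 0.0548 CPM in the S3-4 controls, 0.0559 CPM in the S7 controls and 0.0504 CPM in S5-6 ZmCCT(+), and folds against it are lower bounds that cover counting error only.

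Zm00001d009054 lies on the minus strand of chromosome 8, from 33466268 to 33469138. Positions are those of the deposited tables, and no source used here names their genome build. Its level was 65.5, 60.9 and 66.6 CPM in the S3-4 ZmCCT(+) libraries and 62.2, 64.6 and 66.6 CPM in the S7 ZmCCT(+) libraries, with no count in the other 12. The ZmCCT(+) levels at S3-4 and S7 overlap, and they were at least 1174-fold higher than the floor of the controls at S3-4 and at least 1153-fold higher at S7. Zm00001d047323 (chromosome 9, 126607955 to 126611605, plus strand) had 51.4, 49.6 and 49.7 CPM at S3-4 and 65.3, 61.3 and 66.7 CPM at S7 in ZmCCT(+). It was at least 917-fold higher than the control floor of counts at S3-4. Its TPM averaged 36.9 in ZmCCT(+) and 0.0396 in ZmCCT(-) at S7, so the readouts differ on whether the S7 controls held any of its RNA, and no bound is given for that stage.

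The next pair of silent genes was more abundant at S7 than at S3-4 in CPM. Zm00001d018713 (chromosome 7, 2994080 to 3005147) had 21.8, 17.5 and 20.9 CPM in S3-4 ZmCCT(+) and 41.8, 45.7 and 45.2 CPM in S7 ZmCCT(+), at least 367-fold and at least 791-fold higher than the control floor. Zm00001d051794 (chromosome 4, 169921640 to 169924690) had 20.8, 19.5 and 21.1 CPM in S3-4 ZmCCT(+) and 37.9, 39.3 and 43.8 CPM in S7 ZmCCT(+). It was at least 373.2-fold higher than the control floor at S3-4 and at least 722-fold higher at S7. In both genes the S7 libraries lay above all S3-4 libraries.

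The last pair of the 6 had lower counts. Zm00001d036609 (chromosome 6, 94235801 to 94239377) averaged 7.31 ± 0.933 CPM at S3-4 and 25.1 ± 0.428 CPM at S7 in ZmCCT(+) (SD, n = 3 each). Zm00001d046520, the shortest member at 234 bases, averaged 3.10 ± 0.299 CPM at S3-4 and 3.27 ± 1.06 CPM at S7 in ZmCCT(+) (SD, n = 3 each), at least 56.6-fold and at least 58.5-fold higher than the control floor. These last 2 genes, which the naming rule did not pick, are given to complete the set of members with no control count.

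Another pair of genes came close to that state. Zm00001d008904 (chromosome 8, 24559394 to 24563053) had 75.8, 62.0 and 73.8 CPM at S3-4 and 67.1, 67.7 and 71.9 CPM at S7 in ZmCCT(+), with 1 count in the S3-4 controls, 2 counts in S5-6 ZmCCT(+), 1 count in the S5-6 controls and 0 in the S7 controls. Against the S7 control floor it was at least 1232-fold higher. Zm00001d043151 (chromosome 3, 190214692 to 190220053) had 21.0, 19.4 and 17.6 CPM at S3-4 and 17.5, 16.7 and 16.9 CPM at S7 in ZmCCT(+), with a single control count, at S5-6. It was at least 353-fold higher than the control floor at S3-4 and at least 305-fold higher at S7.

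The remaining 30 members were measured in the controls too, from 6 to 3594 counts over the 9 libraries. The gene with 6 control counts, Zm00001d053528 on chromosome 4, had 2.88, 3.26 and 2.66 CPM at S3-4 and 2.96, 3.19 and 3.43 CPM at S7 in ZmCCT(+), and no count in the S3-4 controls. In TPM, however, the controls were not at 0: at S3-4 it averaged 9.95 ± 0.809 TPM in ZmCCT(+) and 0.512 ± 0.186 TPM in ZmCCT(-) (SD, n = 3 each), and no bound is drawn from the count of 0.

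Zm00001d032090 (chromosome 1, 212238638 to 212245323) showed the pattern at a high level. Its S3-4 libraries held 110, 105 and 110 CPM in ZmCCT(+), against 5.48, 5.67 and 7.02 CPM in ZmCCT(-). At S5-6 they held 6.33, 6.89 and 6.32 CPM in ZmCCT(+), against 6.11, 6.87 and 7.70 CPM in ZmCCT(-), and at S7 they held 239, 238 and 233 CPM in ZmCCT(+), against 6.65, 5.83 and 5.39 CPM in ZmCCT(-). The genotypes overlapped at S5-6 and stood far apart at both other stages, with ratios of 17.6 at S3-4 and 39.1 at S7.

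Zm00001d048947 (chromosome 4, 10513764 to 10514291) had its excess mainly at S3-4. There it held 193, 190 and 197 CPM in ZmCCT(+), against 0.727, 0.397 and 0.624 CPM in ZmCCT(-). At S5-6 it held 0.778, 0.972 and 0.842 CPM in ZmCCT(+), against 0.724, 1.03 and 0.869 CPM in ZmCCT(-), and at S7 it held 33.1, 31.0 and 30.6 CPM in ZmCCT(+), against 3.58, 4.22 and 3.90 CPM in ZmCCT(-). The ratio was 283 at S3-4, the highest among the 30, and 7.92 at S7.

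Some members were well above background in every group. Zm00001d052533 (chromosome 4, 192456676 to 192458255) averaged 146 ± 2.22 CPM in ZmCCT(+) and 31.1 ± 0.355 CPM in ZmCCT(-) at S3-4 (SD, n = 3 each). It averaged 18.3 ± 1.24 CPM in ZmCCT(+) and 17.2 ± 1.35 CPM in ZmCCT(-) at S5-6, and 76.5 ± 0.794 CPM in ZmCCT(+) and 17.1 ± 0.895 CPM in ZmCCT(-) at S7 (SD, n = 3 each). Its S5-6 values overlapped between genotypes, and its ratios of 4.70 and 4.46 at S3-4 and S7 are among those nearest the minimum of 4.

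In a few members the S5-6 groups lay apart although the ratio stayed under 1.5. Zm00001d006420 (chromosome 2, 207446621 to 207450015) had 179, 193 and 186 CPM in ZmCCT(+), against 2.24, 2.66 and 3.02 CPM in ZmCCT(-), at S3-4. At S5-6 it had 9.70, 11.3 and 11.7 CPM in ZmCCT(+), against 8.37, 9.25 and 7.89 CPM in ZmCCT(-), and at S7 it had 23.9, 21.2 and 23.0 CPM in ZmCCT(+), against 4.60, 5.001 and 4.42 CPM in ZmCCT(-). Every ZmCCT(+) library exceeded every control library at each of the 3 stages. The same held for Zm00001d021288 (chromosome 7, 147970755 to 147972640), with 187, 206 and 186 CPM in ZmCCT(+) against 6.04, 5.72 and 5.30 CPM in ZmCCT(-) at S3-4, and 5.39, 6.05 and 4.93 CPM in ZmCCT(+) against 4.03, 4.49 and 4.66 CPM in ZmCCT(-) at S5-6. Zm00001d010828 (chromosome 8, 129176182 to 129180135) averaged 153 ± 2.30 CPM in ZmCCT(+) and 9.45 ± 0.843 CPM in ZmCCT(-) at S3-4, and 5.51 ± 0.143 CPM in ZmCCT(+) and 3.85 ± 0.245 CPM in ZmCCT(-) at S5-6 (SD, n = 3 each).

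**Figure D3:**
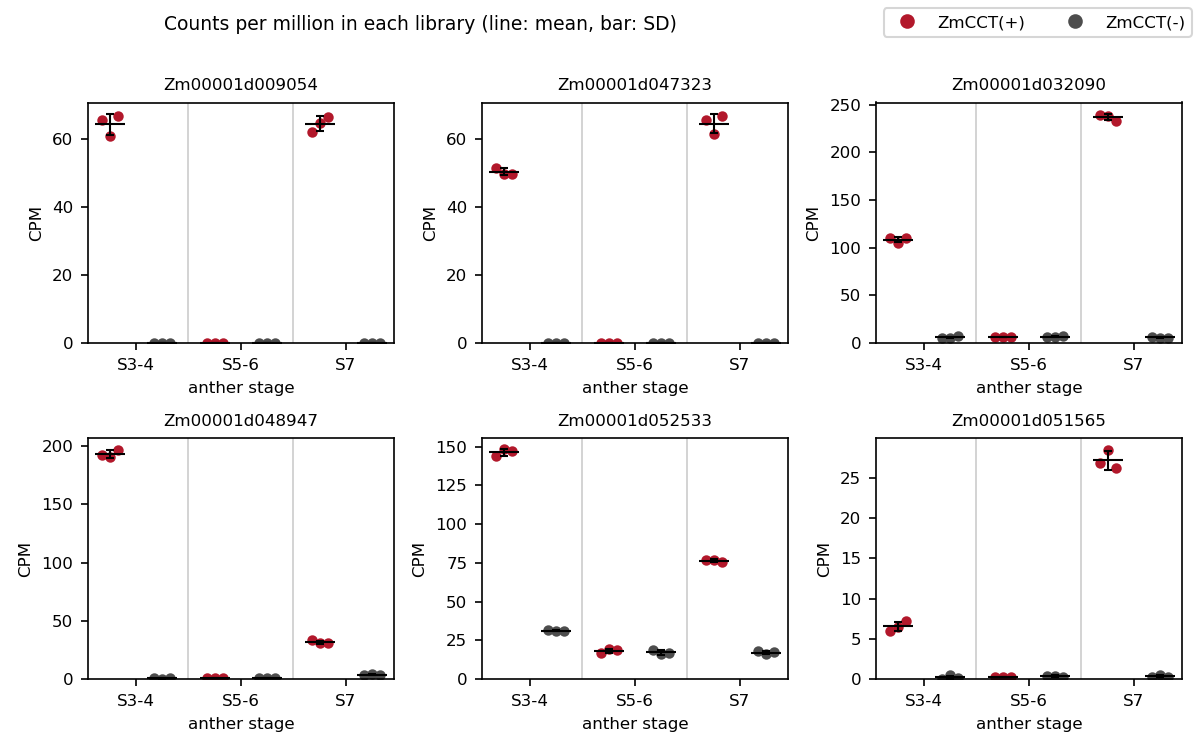
CPM of 6 members in each library, with ZmCCT(+) in red to the left of ZmCCT(-) in grey at each stage; dots are libraries, lines the mean of 3 and bars the SD. Zm00001d009054 and Zm00001d047323 lie at 0 in the controls, Zm00001d032090 and Zm00001d051565 are higher at S7 than at S3-4 in ZmCCT(+), and Zm00001d048947 and Zm00001d052533 the other way round.

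The limits of the rule fell among genes of similar values. At S3-4 the members nearest the minimum ratio of 4 were Zm00001d044635 at 4.10 and Zm00001d052533 at 4.70, and the nearest genes that missed it alone were Zm00001d002491 at 3.52 and Zm00001d007245 at 3.44. At S7 the nearest members were Zm00001d041709 at 4.39 and Zm00001d044686 at 4.46, and 422 genes missed this criterion alone, led by Zm00001d012427 at 3.99 and Zm00001d041067 at 3.97. The S7 requirement therefore left out more genes than any other single one, against 6 genes for the ratio at S3-4.

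At S5-6 the members with the highest ratio were Zm00001d008898 and Zm00001d010828, both at 1.42, and Zm00001d023933 at 1.504 and Zm00001d031760 at 1.51 lay just outside. The members with the lowest were Zm00001d039492 at 0.679 and Zm00001d008951 at 0.688, with Zm00001d039499 at 0.652 and Zm00001d047948 at 0.613 just outside. For the level, Zm00001d047565 at 2.90 CPM and Zm00001d053528 at 2.93 CPM were the lowest members at S3-4, and Zm00001d044701 at 1.87 CPM and Zm00001d018728 at 1.47 CPM missed it. At S7 Zm00001d051887 at 2.20 CPM and Zm00001d044947 at 3.04 CPM were the lowest members, and Zm00001d009759 at 1.99 CPM and Zm00001d036835 at 1.97 CPM missed it.

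Levels can be compared between genes in the deposited TPM, a transcript abundance that allows for gene length. The median member stood at 28.9 TPM in S3-4 ZmCCT(+) and 0.992 TPM in S3-4 ZmCCT(-). At S5-6 the medians were 1.19 TPM in ZmCCT(+) and 1.26 TPM in ZmCCT(-), and at S7 they were 20.7 TPM in ZmCCT(+) and 0.843 TPM in ZmCCT(-). Ranked among all listed genes, the median member was at the percentile of 82.9 in S3-4 ZmCCT(+) and 50.3 in S3-4 ZmCCT(-), and at 75.8 in S7 ZmCCT(+) and 47.6 in S7 ZmCCT(-).

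In TPM the most abundant members at S3-4 in ZmCCT(+) were Zm00001d044662, with 556 ± 8.28 TPM in ZmCCT(+) and 8.15 ± 1.20 TPM in ZmCCT(-), and Zm00001d048947, with 465 ± 7.69 TPM in ZmCCT(+) and 1.33 ± 0.575 TPM in ZmCCT(-) (SD, n = 3 each). After them came Zm00001d021288, with 323 ± 10.96 TPM in ZmCCT(+) and 9.53 ± 0.480 TPM in ZmCCT(-). At S7 Zm00001d032090 led with 141 ± 2.90 TPM in ZmCCT(+) and 4.96 ± 0.336 TPM in ZmCCT(-), followed by Zm00001d044662 with 98.2 ± 8.001 TPM and Zm00001d044686 with 97.9 ± 2.09 TPM in ZmCCT(+), which differ by less than their spread. The order of the members thus differed between the stages. Both readouts come from the same reads, and 36 of 38 members also met the rule in TPM. The exceptions were Zm00001d051733, with 7.33 ± 0.984 TPM in ZmCCT(+) and 3.38 ± 0.218 TPM in ZmCCT(-) at S3-4, and Zm00001d044635, with 34.6 ± 2.40 TPM in ZmCCT(+) and 12.1 ± 1.10 TPM in ZmCCT(-) at S3-4 (SD, n = 3 each).

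Levels at S7 and S3-4 were next compared within ZmCCT(+), a contrast the rule did not take. It compares ZmCCT(+) levels, not the excess over the controls, in libraries the rule used and set a minimum for at both ends, so its calls describe these members and are no independent evidence. In ZmCCT(+), 13 members rose and 20 fell at S7 relative to S3-4, and 5 did not pass the test (edgeR's quasi-likelihood test on 1 fit of all 18 libraries, Benjamini-Hochberg adjusted p below 0.05 over all 24694 genes). That is 86.8% of the members, beside 81.9% of all tested genes called in this contrast, 39.4% higher and 42.6% lower, so the share itself is near the background. The median log2 fold change was -0.34 over the members and -0.04 over all tested genes. Of the members that passed, 14 fell by 2-fold or more (36.8% of the 38, beside 20.3% of all tested genes). Another 3 rose by as much (7.89%, beside 21.0%). These 17 were called the same way under all 16 other analyses tried, but which members reach 2-fold was not recounted there. In CPM, by library totals alone and with 0.1 added, Zm00001d018713, Zm00001d032090, Zm00001d039640 and Zm00001d044740 also rose more than 2-fold (2.05 to 2.19). Zm00001d052533 then fell by less than 2-fold (S7 over S3-4 of 0.522). By mean CPM, 19 members were higher at S3-4 and 19 at S7. All tested genes were not counted this way, so nothing is read from the distance to their shares.

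Members that fell most included Zm00001d018190 (chromosome 5, 216100153 to 216101154), which had 2.56, 3.14 and 3.90 CPM at S7, against 41.8, 50.6 and 49.98 CPM at S3-4, in ZmCCT(+). Its log2 fold change was -4.20 ± 0.12 (SE; edgeR adjusted p = 9.35e-50). The S7 libraries lay below all S3-4 libraries and above all controls. On the same log2 scale followed Zm00001d052154 (-3.58), Zm00001d006420 (-3.36), Zm00001d010828 (-3.33), Zm00001d041709 (-3.32), Zm00001d044947 (-3.23), Zm00001d021288 (-3.11) and Zm00001d048947 (-2.93). The other falls of 2-fold or more were those of Zm00001d044662 (-2.75), Zm00001d016814 (-2.62), Zm00001d029388 (-2.45), Zm00001d025957 (-1.45), Zm00001d051887 (-1.37) and Zm00001d052533 (-1.26). Each of these had its highest ZmCCT(+) level at S3-4.

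Smaller falls were found for Zm00001d039492 (-0.93), Zm00001d044686 (-0.54), Zm00001d043151 (-0.50), Zm00001d008898 (-0.43), Zm00001d008904 (-0.35) and Zm00001d009054 (-0.32). Most of these small falls depend on how libraries are scaled. The S3-4 ZmCCT(+) libraries had TMM factors, edgeR's correction for composition, of 0.845 to 0.854, against 0.961 to 1.075 in all others, and their 10 most abundant genes took 3.67% to 3.93% of counts, against 1.75% to 2.10% elsewhere. With library totals and no factor the median of all genes in this contrast moved up by 0.32. Zm00001d008898, Zm00001d008904 and Zm00001d043151 then lost the call, and Zm00001d009054 stood at 0.003 (adjusted p = 0.962). In TPM, with limma and 1 TPM added, Zm00001d044686 stood at -0.24 (adjusted p = 0.218). Zm00001d008898 also lost its call without replicate 2 of S3-4 ZmCCT(+) (-0.38, adjusted p = 0.0554). With an assumed spread of 20% between libraries, Zm00001d008898, Zm00001d008904, Zm00001d009054 and Zm00001d043151 did not pass (edgeR's likelihood ratio test, adjusted p from 0.0638 to 0.247).

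Members that rose were led by Zm00001d051565 (chromosome 4, 162887403 to 162902341), with 26.8, 28.5 and 26.2 CPM at S7, against 6.04, 6.41 and 7.21 CPM at S3-4, in ZmCCT(+). Its log2 fold change was 1.73 ± 0.12 (SE; edgeR adjusted p = 6.3e-24), and the S7 libraries lay above all S3-4 libraries. Zm00001d036609, with no control count, rose by 1.46 ± 0.12 (SE) on the log2 scale. Zm00001d053092 rose by 1.03 ± 0.06 (SE), with 92.5, 87.4 and 89.9 CPM at S7, against 35.3, 34.5 and 36.0 CPM at S3-4. The smaller rises were those of Zm00001d018713 (0.82), Zm00001d039640 (0.81), Zm00001d032090 (0.81), Zm00001d044740 (0.72), Zm00001d051794 (0.66), Zm00001d038867 (0.55), Zm00001d047565 (0.55), Zm00001d051733 (0.51), Zm00001d044635 (0.37) and Zm00001d008951 (0.37). The 5 that did not pass were Zm00001d046520 (-0.25 ± 0.25), Zm00001d053528 (-0.19 ± 0.25), Zm00001d024005 (-0.15 ± 0.09), Zm00001d025901 (-0.14 ± 0.10) and Zm00001d047323 (0.04 ± 0.06, SE). The rise of Zm00001d047565 did not pass without replicate 1 of S3-4 ZmCCT(+) (0.52, adjusted p = 0.0538) or replicate 3 of S7 ZmCCT(+) (0.47, adjusted p = 0.0892). With an assumed spread of 20% between libraries, Zm00001d038867, Zm00001d047565, Zm00001d051733, Zm00001d044635 and Zm00001d008951 did not pass (edgeR's likelihood ratio test, adjusted p from 0.0542 to 0.183). Zm00001d047323 passed the test with library totals and no factor, at 0.36 (adjusted p = 1.63e-07). It also passed in edgeR with only the libraries compared (0.11, adjusted p = 0.0326). In TPM, with limma and 1 TPM added, it passed at 0.24 (adjusted p = 0.016). Of the 6 members with no control count, 3 rose, 1 fell and 2 did not pass.

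The 9 control libraries show how these genes behave over the stages without the transgene. The 8 members with 0 to 2 control counts could not be called here, and 0 of them was. They passed the filter on low counts only through their ZmCCT(+) libraries, and so did some of the other 30. Examples are Zm00001d053528, Zm00001d044740 and Zm00001d008951, with 6, 20 and 25 control counts, where only large changes could be called. The shares and medians of the 30 include such members. The shares below are a description, and nothing is read from their distance to the background. At S5-6 relative to S3-4, 5 rose and 4 fell, or 23.7% of the 38 and 30% of the 30, beside 56.3% of all tested genes (27.9% higher, 28.4% lower), by the same edgeR fit. At S7 relative to S5-6 again 5 rose and 4 fell, or 23.7% of the 38 and 30% of the 30, beside 42.4% of all tested genes (22.5% higher, 19.9% lower). At S7 relative to S3-4, 7 rose and 6 fell, or 34.2% of the 38 and 43.3% of the 30, beside 64.7% (32.9% higher, 31.8% lower). The median log2 fold changes of the 30 members with more than 2 control counts were 0.12, -0.04 and 0.14 in these 3 contrasts, beside 0.01, 0.03 and 0.02 over all tested genes. The controls of the median member held 35, 48.5 and 30 counts over 3 libraries at S3-4, S5-6 and S7, so small changes were not detectable at this depth.

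At S7 relative to S3-4 the controls had their highest called rises in Zm00001d044686 and Zm00001d048947. Zm00001d044686 (chromosome 3, 234930037 to 234930396) had 7.03, 7.19 and 6.14 CPM at S7, against 0.783, 0.680 and 1.40 CPM at S3-4, in ZmCCT(-), a log2 fold change of 2.69 ± 0.19 (SE; edgeR adjusted p = 1.78e-21). It had already risen by S5-6, with 2.01 ± 0.21 (SE) relative to S3-4. Zm00001d048947 rose by 2.63 ± 0.21 (SE; edgeR adjusted p = 2.57e-19). The fitted change of Zm00001d053528 was larger, at 3.53 ± 1.67 (SE), but it rests on 4 counts at S7 against 0 at S3-4 and did not pass (adjusted p = 0.0569).

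Further control rises at S7 relative to S3-4 were those of Zm00001d044662 (2.03), Zm00001d039492 (1.60), Zm00001d025901 (0.998), Zm00001d008898 (0.90) and Zm00001d006420 (0.71). Zm00001d008898 lost its call without replicate 3 of the S3-4 controls (0.77, adjusted p = 0.0524). Falls were those of Zm00001d029388 (-1.71), Zm00001d010828 (-1.65 ± 0.12, SE), Zm00001d018190 (-1.10), Zm00001d052533 (-0.98), Zm00001d041709 (-0.95) and Zm00001d052154 (-0.93). Zm00001d018190 lost its call without replicate 2 of the S7 controls (-0.78, adjusted p = 0.0671). Zm00001d052154 lost it without replicate 3 of the S3-4 controls (-0.51, adjusted p = 0.267) and without replicate 2 of the S7 controls (-0.65, adjusted p = 0.127).

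The steps through S5-6 in the controls involved partly other members. At S5-6 relative to S3-4, Zm00001d006420 rose by 1.57 ± 0.13 (SE; edgeR adjusted p = 6.46e-19), Zm00001d039492 by 1.24, Zm00001d025957 by 1.23 and Zm00001d053092 by 0.73. In the same step the falls were those of Zm00001d010828 (-1.41), Zm00001d052533 (-0.96), Zm00001d041709 (-0.93) and Zm00001d021288 (-0.49). At S7 relative to S5-6, Zm00001d048947 rose by 2.17 ± 0.19 (SE), Zm00001d044662 by 1.93, Zm00001d025901 by 0.85, Zm00001d044686 by 0.68 and Zm00001d021288 by 0.48, while Zm00001d029388 (-1.23), Zm00001d018190 (-1.14), Zm00001d006420 (-0.86) and Zm00001d052154 (-0.85) fell. The last of these calls is weak, with an adjusted p of 0.0366 in the edgeR fit and between 0.0605 and 0.235 without replicate 2 or 3 of the S5-6 controls or replicate 1 or 2 of the S7 controls. Zm00001d018190 stood at an adjusted p of 0.0604 without replicate 3 of the S5-6 controls and 0.0679 without replicate 2 of the S7 controls.

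The changes at S7 relative to S3-4 can be set side by side for the genotypes, with no test of their difference. Among the 13 members that rose in ZmCCT(+), 3 had no control count, and some had a similar or larger estimate in the controls without passing there. The log2 fold change of Zm00001d051733 was 0.51 in ZmCCT(+) and 0.62 in ZmCCT(-), and with library totals and no factor it passed in the controls too (edgeR adjusted p = 0.0305). That of Zm00001d044635 was 0.37 in ZmCCT(+) and 0.33 in ZmCCT(-), and it passed in the controls under the same scaling (edgeR adjusted p = 0.0116). Of the 20 that fell in ZmCCT(+), 6 rose in the controls (30%), 6 fell there too and 8 had no call. The 8 include Zm00001d009054, Zm00001d008904 and Zm00001d043151, which had 0 to 2 control counts and could not be called there. Of the 10508 tested genes that fell in ZmCCT(+), 21.8% rose in the controls, 43.7% fell there too and 34.5% had no call. The 6 members with opposite calls were Zm00001d048947, Zm00001d006420, Zm00001d044662, Zm00001d044686, Zm00001d039492 and Zm00001d008898, with the values given above. Between S7 and S3-4 they had a lower ZmCCT(+) level and a higher control level. That difference was left untested because the rule took the genotype contrast at both stages. The falls of Zm00001d044686 and Zm00001d008898 lost their calls under some settings, as given above.

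**Figure D4:**
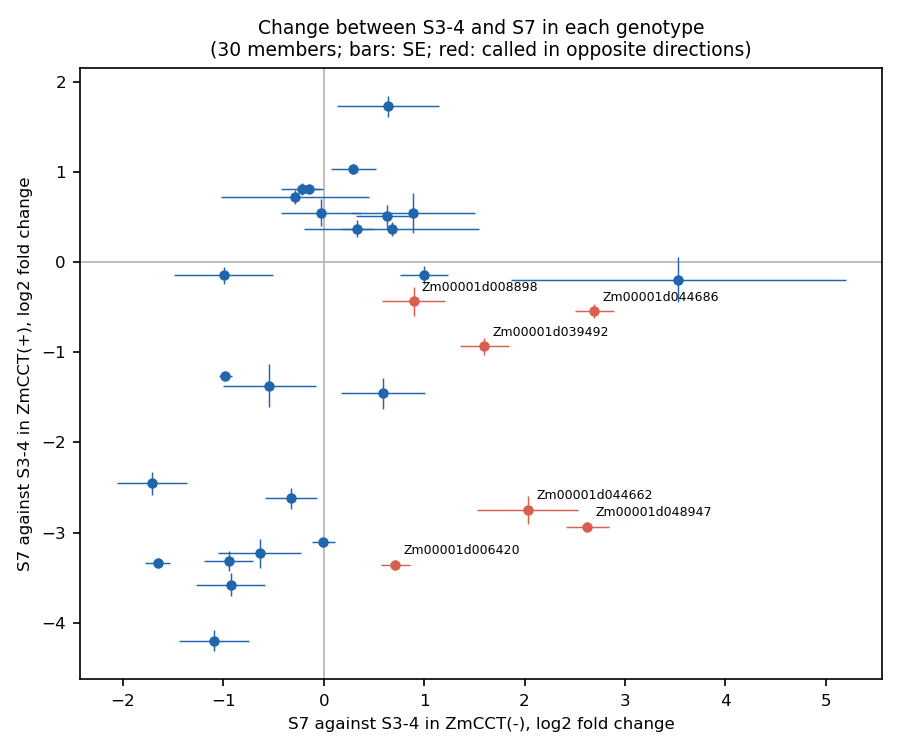
Log2 fold change of S7 against S3-4 in ZmCCT(+) (vertical) and in ZmCCT(-) (horizontal) for the 30 members with more than 2 control counts; bars are SE from the edgeR fit. The 6 members in red fell in ZmCCT(+) and rose in ZmCCT(-), from Zm00001d048947 at -2.93 and 2.63 to Zm00001d008898 at -0.43 and 0.90.

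The members were spread over all 10 chromosomes. Chromosome 4 held 9 of them (23.7%, beside 10.2% of tested genes), chromosome 3 held 7 (18.4%, beside 10.7%), and chromosomes 8 and 9 held 5 each. Chromosome 1, which has 15.5% of tested genes, held 2 members, and chromosome 2 held 1. No test was made of these counts. The strands were shared evenly, with 19 members on each. Members spanned a median of 2399 bases, beside 3501 bases for tested genes, and 7 (18.4%) were shorter than 1000 bases, beside 11.9% of tested genes.

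**Figure D5:**
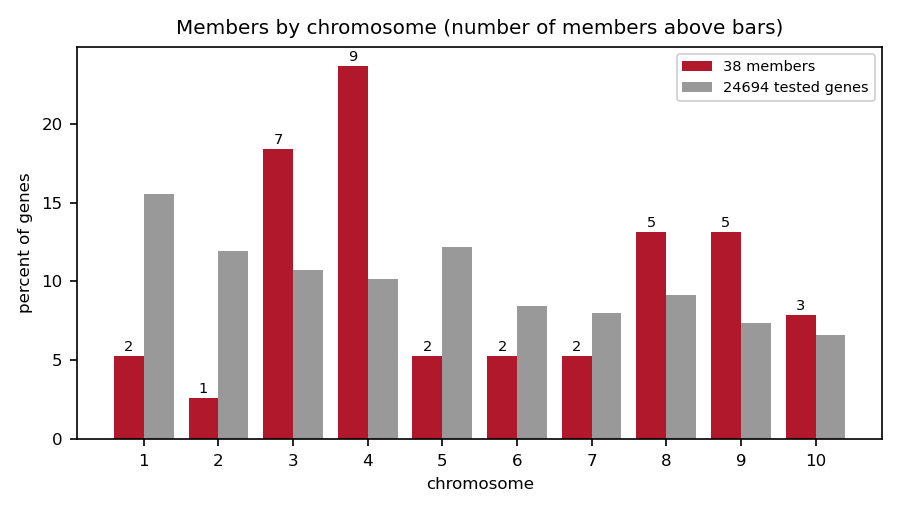
Percent of the 38 members (red, with their number above the bar) and of the 24694 tested genes (grey) on each chromosome. Chromosome 4 holds 9 members, or 23.7%, beside 10.2% of tested genes.

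Neighbouring members were few. With gaps of at most 1 Mb between starts, 2 groups of members formed. On chromosome 3, from 233750694 to 234930396, Zm00001d044635, Zm00001d044662 and Zm00001d044686 lay within 1180 kb, all on the minus strand. Between them were 29 other tested genes with median ratios of 0.881, 1.06 and 0.864 at S3-4, S5-6 and S7, and 2 of them were 2-fold or more higher in ZmCCT(+) at both S3-4 and S7. On chromosome 8, from 24390470 to 24563053, Zm00001d008898 and Zm00001d008904 lay within 173 kb, with 0 of 4 other tested genes 2-fold higher at both stages.

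The tested gene nearest to each member on either side gave 76 neighbours, at a median distance of 52.9 kb, of which 0 was a member. Their median ratios were 1.03 at S3-4, 0.995 at S5-6 and 1.10 at S7. Of the 76, 3 were 4-fold or more higher in ZmCCT(+) at both S3-4 and S7, and 8 were 2-fold or more higher at both. Among all 24694 tested genes the numbers were 210 (0.8504%) and 605 (2.45%), which are smaller shares, with no test made. The 3 were Zm00001d052532 and Zm00001d052534, on either side of Zm00001d052533, and Zm00001d009051 beside Zm00001d009054. All 3 had ZmCCT(+) means under 2 CPM at S3-4 and S7. Zm00001d052154 overlaps Zm00001d052153 on the opposite strand, and Zm00001d044740 overlaps Zm00001d027046, which had no count. No source used here says whether counting used strand, so reads in an overlap cannot be assigned with certainty. At S3-4 Zm00001d052153 had 2848 counts in ZmCCT(+) and 3384 in ZmCCT(-), the other direction from Zm00001d052154, with 2026 in ZmCCT(+) and 58 in ZmCCT(-). At S7 it had 3581 in ZmCCT(+) and 3308 in ZmCCT(-), the same direction as Zm00001d052154, with 197 in ZmCCT(+) and 32 in ZmCCT(-). The ratios of Zm00001d052153 were 0.838, 1.09 and 1.14 at S3-4, S5-6 and S7.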

How the data were processed

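RNA-seq libraries from maize anthers were grouped by the stage and genotype in their labels. For each stage the authors deposited a table of unnormalised read counts by gene. For each of the 18 libraries a further table gives TPM, scaled by the authors to the library, and coverage, a signal of mean depth per base per the file headers. Per the submitters' processing notes the tools were Bowtie2, StringTie and DESeq2. Versions, settings, genome build, and the handling of strand and of reads shared by similar genes are not given in the sources used. All 18 count columns correlated best with the coverage of their own sample (r from 0.977 to 0.995 over 19610 genes), and 0 columns were left without a sample.

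Members and lists were chosen with earlier results of these data known. CPM are counts over library totals with no scaling factor, given as mean and SD. Tests used counts filtered by filterByExpr of edgeR 4.0.16 (R 4.3.3; minimum count 10, minimum total 15), which kept 24694 genes with 99.9% of counts and left out 20884. Scaling was by TMM, with 1 robust quasi-likelihood fit of 6 groups, 12 residual degrees of freedom and Benjamini-Hochberg adjustment over all genes tested. The SE of a log2 fold change was taken from it and the F statistic. The fitting was tested on simulated data with known changes. Alternatives were the test and the size factors of DESeq2 1.42.0, limma 3.58.1 on log2(TPM + 1) and log2(TPM + 0.1), no filter, a stricter filter, only the libraries compared, a replicate block, an assumed spread of 20% with the likelihood ratio test, other limits of the rule, and leaving out each library. Library totals with no factor in the fit were added after seeing the data.

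Total counts ran from 14846974 to 23652182 per library. Floors of 3 counts cover counting error only. In each of 18 replicate pairs the libraries differed by more than sampling noise (chi-square per degree of freedom 1.57 to 3.03). Replicate numbers are not stated to pair the libraries. Correlations of deviations between libraries of the same number ran from -0.103 to 0.0871, which cannot show whether they share a source. The naming rule took the 4 members with the highest CPM in each class of control counts, the 3 with the highest S5-6 level, the 2 genes on each side of each limit, the ends of runs of members and the extreme fold change of each tested contrast. It gave 24 members; the others are named to account for all 38, after their values were seen. Planned gene lists by symbol, and the check of tissue markers, were left out because 0 identifiers could be paired with symbols.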

Additional observations from a re-analysis of the deposited data

Results flagged for a closer look

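In 5 members every ZmCCT(+) library of S7 lay below every one of S3-4 while every control library of S7 lay above every one of S3-4. This separation was not counted over all tested genes, so nothing about the members is read from the count. Of the tested genes that fell in ZmCCT(+), 21.8% rose in the controls, beside 30% of the members that fell. That 30% is 6 of 20 members, and nothing is read from its distance to 21.8%. It includes Zm00001d008898, whose ZmCCT(+) libraries of S3-4 and S7 overlapped and whose fall lost its call with library totals. The values are log2 fold changes of S7 against S3-4 from the edgeR fit, and the difference between the genotypes was not tested. They were -2.93 in ZmCCT(+) and 2.63 in ZmCCT(-) for Zm00001d048947, -3.36 in ZmCCT(+) and 0.71 in ZmCCT(-) for Zm00001d006420, and -2.75 in ZmCCT(+) and 2.03 in ZmCCT(-) for Zm00001d044662. Zm00001d044686 had -0.54 in ZmCCT(+) and 2.69 in ZmCCT(-), and Zm00001d039492 had -0.93 in ZmCCT(+) and 1.60 in ZmCCT(-). For Zm00001d044686 the fall in ZmCCT(+) did not pass in TPM.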

How the results depend on the processing

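The number of members, 38, became 59 with TPM in the rule, 65 with a fold of 3, 21 with a fold of 8 and 61 with S5-6 bounds of 0.5 to 2. A pseudocount of 1 CPM gave 35 genes with only 27 of the members among them, more turnover than any left-out library. The number was 41 with TMM-scaled CPM, with 37 members among them, 30 with a level of 5 CPM, and 36 to 44 when any one library was left out, with 33 to 38 of the members among them and 27 present in every case. The number with no control count was then 6 to 7. With an assumed spread of 20%, the genes called numbered 5471 for the genotypes at S5-6 and 3280 at S7, against 15594 and 13449. In the controls they numbered 4022 at S5-6 against S3-4, 559 at S7 against S5-6 and 6084 at S7 against S3-4, instead of 13897, 10462 and 15984, and in ZmCCT(+) 5954 at S7 against S5-6 instead of 15716. Under that spread 8 members rose in ZmCCT(+) at S7 against S3-4 instead of 13, and in the controls 2 rose and 1 fell at S7 against S5-6; with limma on TPM, 9 (1 TPM added) or 10 (0.1 TPM added) fell there. The cause was not tested. Library totals with no factor turned Zm00001d009054 in ZmCCT(+) at S7 against S3-4 to 0.0031, by removing a factor that differs between the stages. With them the share of calls that were higher was 62.2% in this contrast instead of 48.1%, and in the controls 65.8% at S5-6 against S3-4 instead of 49.6% and 62.8% at S7 against S3-4 instead of 50.8%; limma on log2(TPM + 1) gave 60.8%, 67.7% and 54.6%, and 34.0% at S7 against S5-6 in the controls instead of 53.1%. Leaving out 1 library gave 12 to 13 members higher and 19 to 20 lower in ZmCCT(+) at S7 against S3-4, 5 to 6 and 4 to 6 in the controls at S5-6 against S3-4, 5 to 6 and 3 to 5 at S7 against S5-6, and 6 to 9 and 5 to 7 at S7 against S3-4. Genes called at S3-4, S5-6 and S7 between genotypes ran from 19578 to 19782, 14628 to 14892 and 12420 to 12604. Over the steps S5-6 against S3-4, S7 against S5-6 and S7 against S3-4 they ran from 20835 to 21027, 14870 to 15037 and 19805 to 19982 in ZmCCT(+), and from 12855 to 13150, 9277 to 9468 and 15172 to 15251 in ZmCCT(-). Gaps of 500 kb and 2 Mb gave 1 and 4 groups of neighbouring members instead of 2.

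Replicate numbers are not stated to pair the libraries, and 0 of 9 correlations between genotypes and 0 of 18 between stages were over 0.1. A replicate block on these numbers left 13 members higher and 20 lower in ZmCCT(+) at S7 against S3-4. In this contrast 20237 genes were called instead of 20236, and the block changed no call of a member. For the 24 members that the naming rule picked, 43 results called in the main fit were followed under the other settings. Of these 688 values, 655 kept direction and call, 32 lost the call and 1 reversed. Calls gained under other settings, and calls of the members not picked, are outside this count.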
